A study of Mus musculus with 7 samples.

Results

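Cholesterol efflux, the release of cholesterol from a cell to lipoproteins outside it, is described here through 10 genes of bronchoalveolar lavage cells: Apoe, Abca1, Abcg1, Nr1h3, Nr1h2, Rxra, Npc1, Npc2, Mylip and Lpcat3. They were picked by symbol from the 16476 genes of the deposited table, and all 10 were found and passed the filter on low values. The list was drawn up with the difference between the genotypes already known, so their values below are a description of these libraries and no test of the 10 genes is given. Lungs of C57BL/6 mice were washed out 3 days after LPS, which is endotoxin of bacteria, had been put into the trachea, and antibodies were used to take neutrophils out of the washed-out cells. The knockout group holds 3 libraries labelled Netrin1loxp/loxp LysM Cre and the control group 4 libraries labelled LysM Cre, so both groups carry Cre, which is placed in the lysozyme M gene Lyz2 and acts mainly in cells of the myeloid lineage. Nothing in the labels ties a library to 1 mouse or to a pool, so p-values measure only the spread between these libraries, which may be technical.

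Liver X receptors are nuclear receptors that bind oxysterols, oxidised forms of cholesterol, and pair with a retinoid X receptor on DNA. When a macrophage has taken up more cholesterol than it can use, for instance from dying cells or from lung surfactant, the pair switches on genes that move cholesterol out of the cell and that lower its further uptake. Before it can be exported, cholesterol taken up in lipoproteins or debris has to leave the lysosome, a step that needs the proteins encoded by Npc1 and Npc2.

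The libraries did not all match in the checks of their labels. Lyz2 stood at 936, 1052 and 910 normalized counts in the knockouts, at 76927 and 118781 in control replicates 1 and 4, and at 770 and 721 in control replicates 2 and 3, although the labels give 1 genotype for all 4 controls. Lyz1, its near-identical neighbour with which reads may be shared, had 729, 691 and 1034 in the knockouts and 840, 1191, 886 and 66.5 in the controls. Ntn1, the targeted gene, was near the limit of detection. It had 1, 0 and 1 reads in the knockouts and 1, 4, 9 and 3 reads in the controls. The 2-sided exact permutation p over 35 splits was 0.0571. With scaling by library size instead, the 2-sided exact permutation p was 0.114. Knockout replicate 1 and control replicate 1 had 1 read each, at 1.014 and 1.016 normalized counts, so their order rests on the scaling alone. At so few reads the test cannot decide whether Ntn1 differed. Library depth lay between 9903284 and 13353733 reads. Normalized counts are reads divided by a size factor of each library. Over 12963 genes tested, 1352 were higher and 1461 lower in the knockouts (limma, Benjamini-Hochberg adjusted p under 0.05), 21.7% in either direction. Because the controls differed in Lyz2, results are also given without control replicates 1 and 4 and without control replicates 2 and 3.

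Apoe and Abca1 had the widest gaps between the groups among the 10 genes. Of the 10, 6 were lower in the knockouts with no overlap between the groups (Apoe, Abca1, Nr1h3, Npc1, Rxra and Npc2), where 16.3% of all genes tested were and 33.8% did not overlap in either direction. The same 6 passed the genome-wide threshold in the lower direction, where 11.3% of all genes tested did, and none passed it in the other direction, where 10.4% did. Because the list was chosen with this contrast in view, nothing is read from these shares. The median log2 fold change of the 10 genes was -0.48, against 0.01 over all genes tested. Abcg1, Nr1h2, Mylip and Lpcat3 overlapped between the groups. In RNA of all lavage cells at once, fewer cells of a type and less RNA per cell cannot be told apart.

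**Figure D1:**
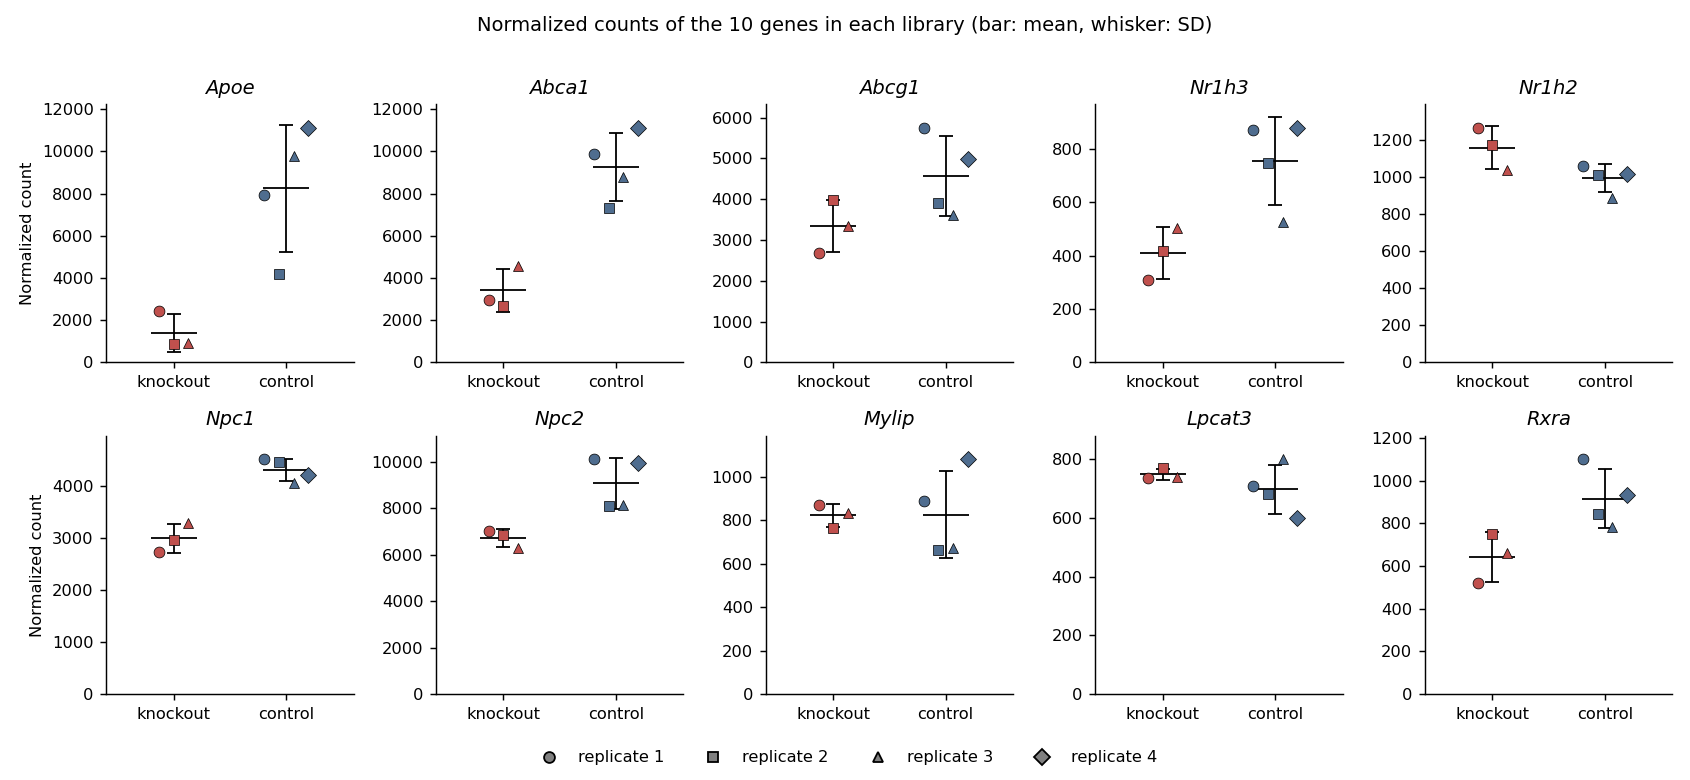
Normalized counts of the 10 genes in each library, with knockouts on the left and controls on the right of each panel; marker shape gives the replicate number, the bar the group mean and the whisker the SD. Apoe in the knockouts stays at or below 2450, under the lowest control at 4167, whereas Abcg1, Nr1h2, Mylip and Lpcat3 overlap.

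Promoter windows of the 2 genes with the widest gaps are shown because liver X receptors act through a paired DNA element, in which 2 copies of the hexamer AGGTCA follow each other with 4 bases of any kind between them (DR4). The windows run from 250 bases before to 50 bases after a RefSeq start site (GRCm38.p6), are written 5′ to 3′ on the strand of the gene, and carry in capitals the place that differs from the element at 3 or fewer of its 12 fixed bases on either strand. The Abca1 window is chr4:53159846-53160145 (minus strand) and the Apoe window chr7:19699139-19699438 (minus strand).
Abca1: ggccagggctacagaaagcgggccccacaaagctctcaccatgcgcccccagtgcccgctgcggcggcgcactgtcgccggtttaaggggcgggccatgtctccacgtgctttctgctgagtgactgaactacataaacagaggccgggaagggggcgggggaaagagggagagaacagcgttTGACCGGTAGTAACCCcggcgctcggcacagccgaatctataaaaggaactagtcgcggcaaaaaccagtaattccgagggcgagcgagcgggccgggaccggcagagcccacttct
Apoe: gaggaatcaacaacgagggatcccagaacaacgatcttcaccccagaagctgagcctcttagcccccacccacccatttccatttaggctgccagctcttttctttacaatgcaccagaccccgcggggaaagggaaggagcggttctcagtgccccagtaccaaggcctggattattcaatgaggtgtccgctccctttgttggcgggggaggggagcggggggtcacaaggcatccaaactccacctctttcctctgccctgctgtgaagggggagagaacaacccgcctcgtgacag
The Abca1 place reads on the opposite strand of the gene and begins 67 bases before the start site. The printed Apoe window has none. Windows were found for 8 of the 10 genes, 12 windows in all, and only 1 further window, the second start of Rxra at chr2:27709042-27709341 (plus strand), held such a place, 58 bases before the start site, shown here without the rest of its window.
Rxra: GTGGCAGGAAAGGTCA
Among all 32851 RefSeq windows of this length 21.9% held a place with 3 or fewer differences, 3.02% one with 2 or fewer, and 0.0152% the element itself. A match of this kind is therefore common. Whether the receptors bind the Abca1 or the Rxra place was not tested, and these shares cannot decide it. In mouse macrophages Apoe is known to be driven through enhancers downstream of the gene, which lie outside this window.

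Apoe encodes apolipoprotein E, a lipid carrier that macrophages secrete and that accepts exported cholesterol (chromosome 7, 19696109 to 19699188, GRCm38). It stood at 2450, 855 and 902 normalized counts in knockout replicates 1 to 3, and at 7944, 4167, 9765 and 11115 in control replicates 1 to 4. Every knockout was below every control, and knockout replicate 1 was the highest of its group as control replicate 2 was the lowest of its own. The mean was 1402 ± 907 in the knockouts (SD, n = 3) and 8248 ± 3015 in the controls (SD, n = 4), so the knockout mean was 17.0% of the control mean. The log2 fold change was -2.65 (SE 0.42). As a share of all reads Apoe made up 0.0198% (exact 95% interval 0.0190 to 0.0206) in knockout replicate 1 and 0.0343% (0.0333 to 0.0353) in control replicate 2, the closest pair of libraries across the groups. These intervals cover counting error only, and the gap between that pair exceeds it.

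The genes that lie beside Apoe showed no call in its direction. Apoc1, an apolipoprotein gene that liver X receptors also switch on, was close to absent, with 5.07, 7.69 and 8.13 normalized counts in the knockouts and 11.2, 5.87, 13.3 and 12.5 in the controls, and was too low to test. Of the 5 neighbours abundant enough to test (Tomm40, Clptm1, Nectin2, Bcam and Relb) none fell, and Relb, an NF-kB subunit, rose by 0.40 in log2 units (SE 0.12, adjusted p = 0.046). That call was lost without any 1 of the 3 knockouts and without control replicate 2 or 4, and over all alternatives its adjusted p was at most 0.142. The median log2 fold change of the 5 was 0.13.

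Abca1 encodes the transporter that loads cholesterol and phospholipid onto lipid-poor apolipoproteins, Apoe among them (chromosome 4, 53030787 to 53159895). Its values were 2962, 2693 and 4567 normalized counts in the knockouts and 9866, 7299, 8773 and 11109 in the controls. The highest knockout, replicate 3, lay well under the lowest control, replicate 2. The mean was 3407 ± 1013 in the knockouts (SD, n = 3) and 9262 ± 1620 in the controls (SD, n = 4), a log2 fold change of -1.46 (SE 0.20).

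Abcg1, the partner transporter that passes cholesterol to mature lipoproteins and is abundant in alveolar macrophages, did not separate the groups (chromosome 17, 31057675 to 31117988). It had 2693, 3976 and 3350 normalized counts in the knockouts and 5750, 3915, 3625 and 4998 in the controls. Knockout replicate 2 was above control replicates 2 and 3, and control replicates 1 and 4 were the highest libraries. The log2 fold change was -0.45 (SE 0.18) with all libraries and -0.19 without control replicates 1 and 4. Without control replicates 2 and 3 it was -0.70, and only under that alternative did Abcg1 pass the genome-wide threshold. On the per-length TPM scale the ratio of Abca1 to Abcg1 within a library was 0.625, 0.385 and 0.775 in the knockouts, and 0.975, 1.06, 1.38 and 1.26 in the controls. The ratios of the groups did not overlap.

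The 2 liver X receptor genes differed from each other. Nr1h3 encodes LXRα, the form enriched in macrophages and liver (chromosome 2, 91184061 to 91202834), and had 309, 419 and 503 normalized counts in the knockouts and 871, 748, 525 and 879 in the controls. The groups nearly touched, since knockout replicate 3 and control replicate 3 were 503 and 525. Its log2 fold change was -0.88 (SE 0.21), and it no longer passed the genome-wide threshold without knockout replicate 2, control replicate 2 or control replicate 4. Nr1h2 encodes LXRβ, the form found in most tissues (chromosome 7, 44549616 to 44553951), and had 1266, 1173 and 1037 normalized counts in the knockouts and 1061, 1011, 888 and 1019 in the controls. Those groups overlapped through knockout replicate 3 and control replicate 1, with a log2 fold change of 0.22 (SE 0.09). Per length, Nr1h3 was 0.25, 0.365 and 0.496 of Nr1h2 in the knockouts, and 0.84, 0.756, 0.605 and 0.882 of it in the controls. This order rests on the transcript taken for the length. With all annotated exons as the length, an alternative added after seeing the data, the ratio averaged 0.483 in the knockouts and 1.00 in the controls, and Nr1h3 was above Nr1h2 in control replicates 1 and 4. On either length every knockout ratio was below every control ratio.

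Rxra encodes the retinoid X receptor α, a DNA-binding partner of both receptors (chromosome 2, 27676440 to 27762957). It had 520, 752 and 659 normalized counts in the knockouts and 1101, 843, 784 and 934 in the controls. The highest knockout and the lowest control were close, at 752 and 784. Its log2 fold change was -0.51 (SE 0.15), and it passed the genome-wide threshold with all libraries but not without knockout replicate 1, knockout replicate 3 or control replicate 1, 2 or 4.

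The lysosomal exporters were both lower in the knockouts and varied little within a group. Npc1 encodes the membrane protein that moves cholesterol through the lysosomal membrane (chromosome 18, 12189692 to 12236400). It had 2742, 2957 and 3292 normalized counts in the knockouts and 4516, 4471, 4054 and 4211 in the controls, a log2 fold change of -0.53 (SE 0.08) between groups that were clearly apart. Part of its exon sequence, 511 bases of 11317, is shared with Rmc1 on the opposite strand. The sources used here do not give the strand setting of the counting, so reads of the overlap cannot be told apart. Npc2 encodes the soluble lysosomal protein that hands cholesterol to the Npc1 product (chromosome 12, 84754562 to 84773152). Its values were 7027, 6862 and 6292 normalized counts in the knockouts and 10111, 8093, 8153 and 9940 in the controls. Here the controls formed a higher pair, replicates 1 and 4, and a lower pair nearer to the knockouts, and the log2 fold change of -0.43 (SE 0.11) became -0.27 without control replicates 1 and 4. Npc2 did not pass the genome-wide threshold without knockout replicate 2, knockout replicate 3 or control replicate 4.

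Mylip and Lpcat3, both switched on by liver X receptors, had overlapping values in the 2 groups. Mylip encodes IDOL, a ubiquitin ligase that sends lipoprotein receptors for degradation (chromosome 13, 45389742 to 45412022). It had 869, 762 and 836 normalized counts in the knockouts and 888, 661, 671 and 1081 in the controls, and the knockouts lay inside the range of the controls. Its log2 fold change was 0.02 (SE 0.17), 0.30 without control replicates 1 and 4, and -0.25 without control replicates 2 and 3. Lpcat3 encodes a lysophospholipid acyltransferase that builds polyunsaturated phospholipids into membranes (chromosome 6, 124663027 to 124704418). It had 735, 770 and 740 normalized counts in the knockouts and 708, 681, 799 and 599 in the controls, with a log2 fold change of 0.11 (SE 0.10). The knockouts again lay inside the control range. Of the Lpcat3 exon sequence 334 bases of 3268 are shared with Emg1 on the opposite strand, and reads of that overlap cannot be told apart either.

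**Figure D2:**
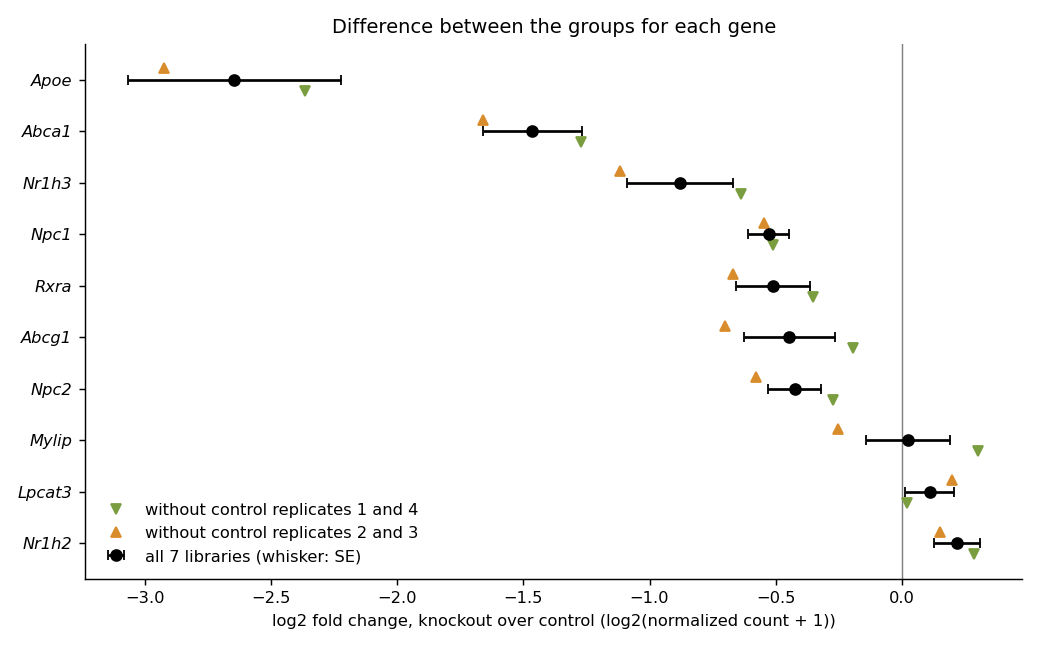
Log2 fold change of each gene, knockout over control, with all 7 libraries (black, whisker SE), without control replicates 1 and 4 (downward triangles) and without control replicates 2 and 3 (upward triangles). Apoe and Abca1 lie below -1.2 in all 3 cases, and Mylip changes sign between them.

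Within the control group most of the 10 genes followed the split in Lyz2. For 7 of them (Abca1, Abcg1, Nr1h3, Nr1h2, Npc2, Mylip and Rxra) control replicates 1 and 4 were both above control replicates 2 and 3, where 21.1% of all genes tested showed that order. Apoe, Npc1 and Lpcat3 did not show it, and none of the 10 showed the opposite order, where 19.9% of all genes tested did. Whether the difference in Lyz2 has a part in these levels was not tested. Against control replicates 2 and 3 alone, the log2 fold change was -2.37 for Apoe, -1.27 for Abca1, -0.64 for Nr1h3, -0.51 for Npc1 and -0.35 for Rxra, and Apoe, Abca1 and Npc1 passed the genome-wide threshold, where 4.37% of all genes tested did so in the lower direction and 9.18% in either. Against control replicates 1 and 4 alone it was -2.92 for Apoe, -1.66 for Abca1, -1.12 for Nr1h3, -0.55 for Npc1 and -0.67 for Rxra, and Apoe, Abca1, Abcg1, Nr1h3, Npc1 and Npc2 passed, where 4.8% did so in the lower direction and 9.62% in either. By edgeR on recovered reads the same 6 genes passed as with limma, where 11.6% of all genes did so in the lower direction and 22.1% in either. With libraries matched by the replicate number of their titles Apoe and Abca1 passed (2.87% lower and 6.15% in either direction over all genes), and by that of their descriptions Apoe, Abca1 and Npc1 (4.67% and 9.36%).

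Among the knockouts no library was lowest throughout. Replicate 1 held the lowest value for 5 of the 10 genes (Abcg1, Nr1h3, Npc1, Lpcat3 and Rxra) while it was the highest knockout for Apoe. Replicate 2 was lowest for Apoe, Abca1 and Mylip, and replicate 3 for Nr1h2 and Npc2. Apoe also varied most within its group, with an SD of 64.7% of the mean in knockouts and 36.6% in controls, whereas the SD of Lpcat3 was 2.54% of the mean in knockouts and 11.8% in controls.

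Levels were compared between genes only per length, as TPM, reads per transcript length scaled to the same total in every library. In the knockouts the highest was Npc2 (380 ± 17.6), followed by Apoe (181 ± 104), Nr1h2 (108 ± 6.15), Abcg1 (108 ± 25.9), Npc1 (107 ± 16), Abca1 (62.3 ± 21), Lpcat3 (61.3 ± 4.87), Mylip (50 ± 2.73), Nr1h3 (39.6 ± 11.5) and Rxra (24.7 ± 5.72; SD, n = 3 each). In the controls the highest was Apoe (1128 ± 403), followed by Npc2 (530 ± 41.4), Abca1 (174 ± 24.9), Npc1 (160 ± 8.82), Abcg1 (151 ± 25.9), Nr1h2 (96.2 ± 5.26), Nr1h3 (74.4 ± 14.1), Lpcat3 (59.3 ± 8.63), Mylip (51.8 ± 10.7) and Rxra (36 ± 3.96; SD, n = 4 each). In the knockouts the ranges of 1 SD around the mean overlapped between neighbours from Apoe down to Npc1, for Abca1 and Lpcat3, and between neighbours from Mylip down to Rxra. In the controls they overlapped among Abca1, Npc1 and Abcg1 and between neighbours from Nr1h3 down to Mylip. Neighbours not named here did not overlap in that range. These levels depend on the transcript taken for the length. With all annotated exons as the length, Abca1, Abcg1 and Npc1 came to 87.7, 122 and 70.4 TPM in the knockouts and to 246, 172 and 105 in the controls.

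Cell type markers moved between the groups as well. Of 13 markers of monocytes and recruited macrophages 8 fell (C1qa and C1qc among them) and 1, Ccr2, rose. Without knockout replicate 2 or 3 or control replicate 1, 3 or 4, 5 fell, and neither C1qa nor C1qc was among them. The Ccr2 call was lost without any single library other than control replicate 4, without control replicates 2 and 3, and with edgeR. The 13 had a median log2 fold change of -0.88, and their summed level was 26513 to 35185 normalized counts in knockouts and 39349 to 47742 in controls. None of the 11 markers of resident alveolar macrophages passed the test, and their sums, 73244 to 123368 in knockouts and 56588 to 91277 in controls, overlapped. All 10 natural killer cell markers rose (sums of 40153 to 46211 in knockouts and 7549 to 13350 in controls), as did 4 of 10 neutrophil markers (20410 to 64157 in knockouts and 13600 to 17050 in controls) and 6 of 9 lung epithelial markers (809 to 1155 in knockouts and 452 to 547 in controls). With the control pairs left out, 0 neutrophil markers rose in either case, and 5 epithelial markers rose without control replicates 1 and 4 but 3 without control replicates 2 and 3. Of the 3 B cell markers abundant enough to test 1 rose (sums of all 5 of 530 to 830 in knockouts and 388 to 547 in controls). That call, Ighm, was lost without knockout replicate 2, control replicate 2 or control replicates 2 and 3. Of 6 dendritic cell markers 1 rose (1537 to 2596 in knockouts and 895 to 1246 in controls). That call, Ccr7, was lost without knockout replicate 1 or 2 or control replicate 1, 2 or 4. It was also lost without control replicates 1 and 4. None of 8 T cell markers (3587 to 5501 in knockouts and 4124 to 5094 in controls) and none of 7 erythroid genes (6936 to 136707 in knockouts and 1254 to 26210 in controls) passed the test. No marker of these lists was at 0 in every library. The part of these cell types in the values of the 10 genes was not tested.

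Apoe was also set against complement C1q, a product of macrophages. The summed C1qa, C1qb and C1qc counts were 3201, 1787 and 2011 in the knockouts and 3820, 2679, 5267 and 4751 in the controls, and knockout replicate 1 was above control replicate 2. Apoe over that sum was 0.765, 0.478 and 0.449 in the knockouts and 2.08, 1.56, 1.85 and 2.34 in the controls, so the ratios did not overlap. Over the sum of the 13 monocyte and recruited macrophage markers, Apoe came to 0.0696, 0.0322 and 0.0313 in the knockouts and 0.197, 0.106, 0.205 and 0.241 in the controls. Both ratios were chosen after the values were seen.

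**Figure D3:**
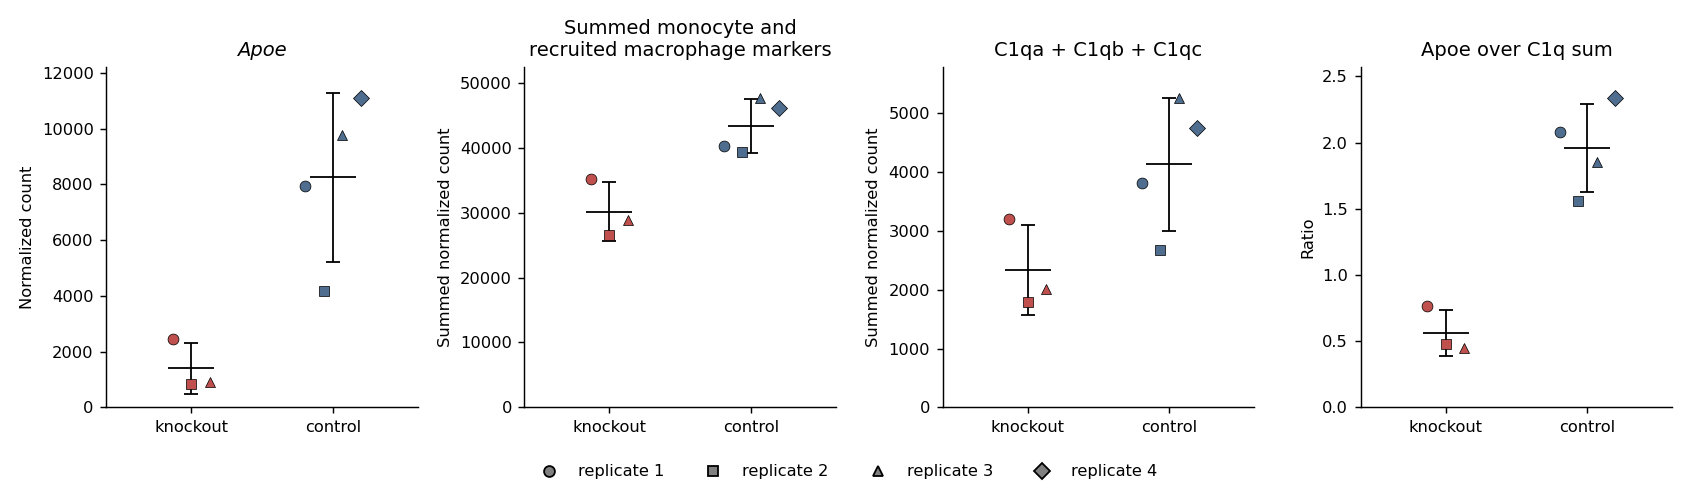
Apoe, the summed monocyte and recruited macrophage markers, the summed C1q genes and the ratio of Apoe to the C1q sum in each library, knockouts left of controls; bars and whiskers are mean and SD. The ratio is at most 0.765 in knockouts and at least 1.56 in controls, while the C1q sums overlap.

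The 5 other genes whose course over the 7 libraries was most like that of Apoe were Ms4a14, Tmem119, Abcc3, Htr2b and Slc36a2. Likeness was the root-mean-square difference of log2 levels, each centred on its gene's own mean, and ran from 0.47 for Ms4a14 to 0.54 for Slc36a2, against 0.86 for Abca1, the nearest of the other 9 genes. Ms4a14, a membrane protein of the Ms4a family, had 15.2, 3.85 and 9.94 normalized counts in the knockouts and 50.8, 45, 44.2 and 67.7 in the controls. Tmem119, a membrane protein used as a microglia marker, had 101, 39.4 and 60.5 in the knockouts and 247, 153, 265 and 256 in the controls. Abcc3, an organic anion exporter, had 484, 171 and 258 in the knockouts and 850, 713, 1453 and 1058 in the controls. Htr2b, a serotonin receptor, had 27.4, 14.4 and 28.9 in the knockouts and 153, 111, 135 and 132 in the controls. For these 4 genes every knockout was below every control. The measure uses all 7 libraries and so includes the difference between the groups, and Slc36a2, at 0.903 to 6.08 in the knockouts, rests on few reads.

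The other genes of the pathway and the genes beside Apoe, together 7 lists, went both ways. The counts below include the 5 tested neighbours of Apoe, which were listed by position, and Relb is among those that rose. Of 72 tested, 10 rose (13.9%) and 21 fell (29.2%), and the median log2 fold change was -0.06. Over all genes tested 10.4% rose and 11.3% fell. Without control replicates 1 and 4, 7 rose and 8 fell, and without control replicates 2 and 3, 7 rose and 9 fell. Without knockout replicate 2, 8 rose and 12 fell. Of the 31 calls 18 held with each library left out in turn, and none changed direction under any of the 19 alternatives. The calls of Scd1, Mertk, Sult2b1, Soat1, Gramd1a, Osbpl5, Lrp1 and Abcg2 were among those that held under all 19.

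**Figure D4:**
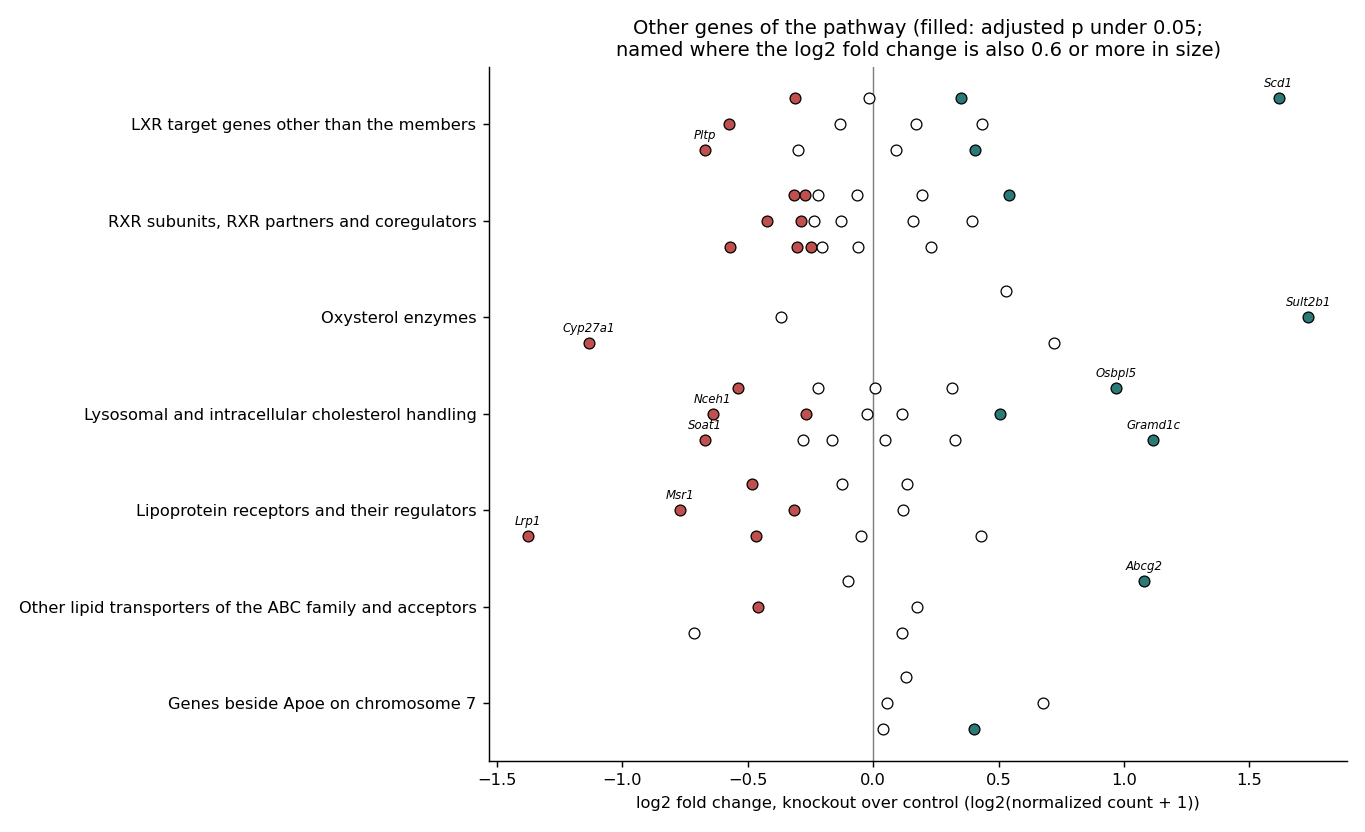
Log2 fold change, knockout over control, of each tested gene in the 7 lists, which hold other pathway genes and the genes beside Apoe. Filled points passed an adjusted p under 0.05, red for lower and green for higher in knockouts. Lrp1 is the leftmost point at -1.38 and Sult2b1 the rightmost at 1.74.

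Of 12 other liver X receptor targets tested 3 rose and 3 fell, with a median log2 fold change of 0.04. Those that rose make fatty acids: Scd1, a desaturase, had 178, 220 and 180 normalized counts in the knockouts and 56.9, 67.5, 86.7 and 43.9 in the controls (adjusted p = 0.00202), Elovl5, an elongase, rose by 0.41 in log2 units (adjusted p = 0.0112) and Fasn, fatty acid synthase, by 0.35 (adjusted p = 0.0431). Those that fell were Mertk, a receptor for dying cells (-0.58, SE 0.11, adjusted p = 0.00857), Pltp, the phospholipid transfer protein (-0.67, SE 0.15, adjusted p = 0.0163), and Acaca, the acetyl-CoA carboxylase that supplies fatty acid synthase (-0.31, SE 0.09, adjusted p = 0.0408). Srebf1, the lipogenic factor that liver X receptors switch on, had a log2 fold change of 0.17 (adjusted p = 0.114) and is named here outside the naming rule, after its value was seen. With control replicates 1 and 4 left out, 1 of the 12 rose (Scd1) and 1 fell (Mertk), and with control replicates 2 and 3 left out 1 rose and 2 fell. The Fasn call was lost without knockout replicate 2 or 3 or control replicate 1, 2 or 4, and the Acaca call without any single library other than knockout replicate 3.

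Among 18 retinoid X receptor subunits, partners and coregulators 7 fell and 1 rose, with a median log2 fold change of -0.21. The coactivators Ncoa3 and Ncoa6 fell by 0.42 (SE 0.07, adjusted p = 0.00371) and 0.31 in log2 units (SE 0.06, adjusted p = 0.00829). Ncoa1, Ep300, Crebbp and Ppard also fell. Vdr, the vitamin D receptor and another partner of retinoid X receptors, rose by 0.54 (SE 0.11, adjusted p = 0.0111). Without knockout replicate 2, or without control replicate 2 or 4, 4 genes of the list fell, and 3 and 2 fell with control replicates 1 and 4 or control replicates 2 and 3 left out.

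Enzymes that make or modify oxysterols, the ligands of the receptors, went in opposite directions. Sult2b1, a sulfotransferase that acts on cholesterol and oxysterols, had 197, 162 and 174 normalized counts in the knockouts and 34.5, 60.7, 71.7 and 50.2 in the controls, which is 1.74 in log2 fold change (SE 0.23, adjusted p = 0.00192). Cyp27a1, which makes 27-hydroxycholesterol, had 51.7, 35.6 and 25.3 in the knockouts and 69.1, 57.7, 97.3 and 106.6 in the controls, which is -1.13 in log2 fold change (SE 0.29, adjusted p = 0.0244). The groups were apart for both, but the Cyp27a1 call was lost without knockout replicate 2 or 3 or control replicate 3 or 4. The other 3 tested of this list did not pass, and the list's median was 0.53.

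Genes of cholesterol storage and transport inside the cell were divided, with 3 of 16 higher, 4 lower and a median log2 fold change of -0.01. Soat1, which esterifies cholesterol for storage, had 3697, 4116 and 4271 normalized counts in the knockouts and 6702, 6644, 5775 and 6538 in the controls (log2 fold change -0.67, SE 0.08, adjusted p = 0.00153). Nceh1, a hydrolase of stored cholesterol esters, fell by 0.64 (SE 0.13, adjusted p = 0.0125). Within the Aster family, which carries cholesterol from the plasma membrane to the endoplasmic reticulum, Gramd1b fell by 0.54 (SE 0.08, adjusted p = 0.00371) whereas Gramd1a rose by 0.51 (SE 0.08, adjusted p = 0.00418) and Gramd1c by 1.12 (SE 0.25, adjusted p = 0.0153). Osbpl5, an oxysterol-binding protein relative, rose by 0.97 (SE 0.13, adjusted p = 0.00217). The Gramd1c call was lost without knockout replicate 3 and without control replicates 1 and 4, and the Nceh1 call without control replicates 1 and 4. In that last case 2 genes of the list rose and 2 fell.

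Of 10 lipoprotein receptors and their regulators 5 fell and none rose, with a median log2 fold change of -0.22. Lrp1, a large endocytic receptor that binds apolipoprotein E, had 6054, 7693 and 9781 normalized counts in the knockouts and 18059, 20869, 20690 and 20383 in the controls, which is -1.38 in log2 fold change (SE 0.15, adjusted p = 0.000963). Msr1, a scavenger receptor for modified lipoproteins, fell by 0.77 (SE 0.16, adjusted p = 0.0129) and Lrpap1, a chaperone of Lrp1 and related receptors, by 0.48 (SE 0.11, adjusted p = 0.0148). Only 2 of the list fell without knockout replicate 2 and when either pair of controls was left out, and 3 without knockout replicate 3. Of 6 other tested lipid transporters Abcg2 rose by 1.08 (SE 0.17, adjusted p = 0.00365) and Abca3, which loads surfactant lipid, fell by 0.46 (SE 0.11, adjusted p = 0.0204), a call lost without control replicate 2.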

How the data were processed

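RNA of bronchoalveolar lavage cells was sequenced in 3 knockout and 4 control libraries, grouped by their genotype labels. Trizol was used for RNA and a KAPA mRNA kit for the libraries, per the labels' protocols. The submitters' processing notes name cutadapt (1.15), STAR (2.5.3a), HTSeq and DESeq2, with the builds GRCm38 and mm10. For the annotation and strand setting of the counting, the sources used here give nothing. The deposited signal is a normalized count per gene and library. Beside it, per the file headers, stand the authors' log2 fold change, its statistic (a score) and p-values. Every value was a whole multiple of 1 step within 0.01 (100% of values), so whole reads were recovered. Since the deposited values are normalized, a count model was not the main test.

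limma 3.58.1 (R 4.3.3, eBayes with trend) was run on log2(normalized count + 1) for 12963 genes with a mean of at least 10, with Benjamini-Hochberg adjustment over all of them and a threshold of 0.05. Fold changes on this scale understate the change of low genes. A count of 0 allows up to 3 reads. edgeR 4.0.16 and DESeq2 1.42.0 were run on the recovered reads as alternatives, and edgeR called 2867 of 12984 genes. Positions and lengths came from GENCODE M21, which matched 99.8% of identifiers; per-length levels used the longest principal transcript. Promoters came from RefSeq, GRCm38.p6. Libraries of a group were not copies of one another (chi-square per gene 8.51 to 35.5). The fit was tested on simulated data with known changes. It recovered 38.1% of 63 changes of 1.5-fold, 63.2% of 68 of 2-fold and 92.8% of 69 of 4-fold, and 4.38% of its calls were false. A gene that was not called may therefore still differ. The simulation held 12984 genes, and far fewer of them were changed than the 2813 called here. Its rates may not hold for this contrast. The 10 genes and all lists were chosen with earlier results of these data known. Named genes are the 10, the label checks Ntn1, Lyz2 and Lyz1, up to 3 called genes per direction of each list by p, and the 5 genes most like Apoe; others are marked, and some genes of the lists are counted but not reported by name here.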

Additional observations from a re-analysis of the deposited data

Results flagged for a closer look

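In 42 sets of 4 control values examined, 2 had a library that stood apart, and chance alone gives about 1 in 20. Tmem119, one of the genes most like Apoe, had its lowest control in replicate 2 (153 normalized counts against 247 to 265 in the other controls, a gap of 0.834 of the range). Osbpl5 had its lowest control in replicate 1 (92.4 against 122 to 126, a gap of 0.899 of the range).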

How the results depend on the processing

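Apoe and Abca1 kept their direction and their genome-wide call under all 19 alternatives, with log2 fold changes of -3.14 to -2.37 and -1.70 to -1.27, and Npc1 under 18 of 19 (-0.60 to -0.47). Nr1h3 and Npc2 kept their call under 13 and Rxra under 10, with the direction unchanged throughout. Mylip, never called, changed sign under 6. Of the 10 genes 2 were called with the title number as a replicate block, 3 with the description number as a replicate block, 3 without control replicates 1 and 4, and 3 to 6 with single libraries left out (3 without control replicate 4). Genes called over the whole table numbered 2813 as reported, 796 and 1215 with the 2 replicate blocks, 1191 without control replicates 1 and 4, 1242 without control replicates 2 and 3, and 1515 to 2426 with single libraries left out (1515 without knockout replicate 2, 1805 without control replicate 2, 1802 without control replicate 4). Of the other pathway genes and the genes beside Apoe 31 were called as reported. They numbered 9 and 16 with the blocks, 15 and 16 without the pairs of controls, and 20 to 29 with single libraries left out (20 without knockout replicate 2). Each block fit used 6 libraries and has fewer residual degrees of freedom. A call lost there does not by itself show a weaker effect. The title block also leaves out control replicate 4, and the description block control replicate 1. For the 10 genes the fold changes equal those without that library. Without control replicate 4 and no block, Nr1h3, Npc2 and Rxra also lost their calls but Npc1 did not. Without control replicate 1 and no block, Rxra lost its call but Nr1h3 and Npc2 did not. The numbers did not pair the libraries: deviations of same-numbered libraries correlated across genes at -0.229, -0.0253 and -0.188 by title and at -0.0768, -0.285 and 0.0762 by description, and no knockout correlated best with the control of its own number. The Ntn1 log2 difference ranged from -1.92 to -1.21 with single libraries left out. With a single library left out no split could have passed 0.05. At 0 to 9 reads per library, depth limits what can be said of Ntn1.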

Other observations

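The authors' deposited table orders the 2 widest differences the other way round from the normalized counts in the same table. In the authors' deposited table the log2 fold change is -0.95 for Apoe (SE 0.22) and -1.21 for Abca1 (SE 0.17). For the other 8 genes the authors' deposited table gives values from -0.72 (Nr1h3) to 0.21 (Nr1h2). For 1642 genes the deposited statistic was over 1% away from the ratio of fold change to SE in the same row.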
